A study of Rattus norvegicus with 7 samples.

Results

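The earliest response of rat oral epithelial ROE2 cells to sodium fluoride (NaF) was read from the array of cells exposed to 2 mM NaF for 3 h, set against the array of cells given vehicle for 3 h. Signals were log2 values per probe set, and a probe set was kept when it reached a log2 signal of 7 on at least 1 of these arrays. Of 31099 probe sets, 11099 passed, and those with a single gene symbol named 7575 of the 14218 genes on the array. Each gene is described at its kept probe set with the highest mean signal on these arrays. ROE2 is an immortalized line from the tongue of fetal Wistar rats that carry a temperature-sensitive simian virus large T-antigen, so every group of this study also carries that transgene. The cells were kept for a day in medium with low serum, at the same level as in maintenance but at a higher temperature. For this medium the paper lists none of the other maintenance supplements, such as insulin and epidermal growth factor. The cells were then given 2 mM NaF for 3, 6 or 12 h or sterilized water as vehicle for 0, 3, 6 or 12 h. Each of the 7 conditions is represented by a single Affymetrix rat genome array, which carried RNA mixed from 3 independent experiments. No condition therefore had a replicate array, and the spread among the 4 vehicle arrays served as the scale of noise.

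The 2 arrays carried the marks of an epithelium. Of 12 epithelial markers, 11 were kept, and these had a median log2 signal of 11.98 at NaF 3 h and 12.02 at vehicle 3 h. Krt14, a keratin of basal epithelial cells, had 14.10 on both arrays. The exception was Krt18, a keratin of simple epithelia, which was at 2.89 at NaF 3 h and 2.91 at vehicle 3 h. No fibroblast marker (of 5) and no endothelial marker (of 3 on the array) was kept, whereas 1 of 5 leukocyte markers (Cd14) and 1 of 5 muscle markers (Myh1) were. On the vehicle 3 h array the 3' signal of the beta-actin control exceeded its 5' signal by 2.83 on the log2 scale, the widest gap of the 7 arrays, against 2.39 on the NaF 3 h array and 1.53 to 1.98 on the other vehicle arrays. The part of RNA quality in the values below was not tested. In pooled RNA of a whole culture, a lower signal per cell and fewer cells with that signal cannot be told apart.

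Cells answer growth factors and stress first with immediate early genes, which need no newly made protein to be transcribed. Many of them encode transcription factors, such as those of the Egr, Fos and Nr4a families, and others encode proteins that shut the signal off again, such as MAP kinase phosphatases. Messages of this kind are short-lived, so a level at 3 h can reflect both how fast a message is made and how fast it is removed. The integrated stress response is a separate program in which phosphorylated eIF2-alpha slows translation while Atf4, Ddit3 and their targets are induced.

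More genes fell than rose. The limma test, which set NaF 3 h against the mean of the 4 vehicle arrays, called 201 of 7575 genes higher (2.65%) and 496 lower (6.55%) at a Benjamini-Hochberg adjusted p under 0.05. At an unadjusted p under 0.05 by the same test, 725 of the 7575 genes were higher and 1224 lower. Over all kept probe sets, named or not, 322 were higher (2.90%) and 700 lower (6.31%). Of the called genes, 34 were at least 2-fold above vehicle 3 h (0.449% of genes tested) and 61 at least 2-fold below it (0.805%). A further 74 called genes were 0.5 to 1 above vehicle 3 h on the log2 scale, and 241 were 0.5 to 1 below it. Over all genes the difference had a median of -0.04, and the SD among vehicle arrays a median of 0.07. As a background, 0 genes were 2-fold higher and at most 4 were 2-fold lower on any other vehicle array than on vehicle 3 h. The NaF 3 h array, having no replicate, was given the variance of the vehicle arrays, and the p-values therefore reflect only how far pooled vehicle samples of different times lay apart. The counts depended on single vehicle arrays: 54 genes were higher and 133 lower without the 6 h array, 71 and 177 without the 12 h array, and 116 and 389 without the 0 h array, but 175 and 354 without the 3 h array. Among the 34 and 61 genes, 26 and 47 kept their call without the 6 h array.

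**Figure D1:**
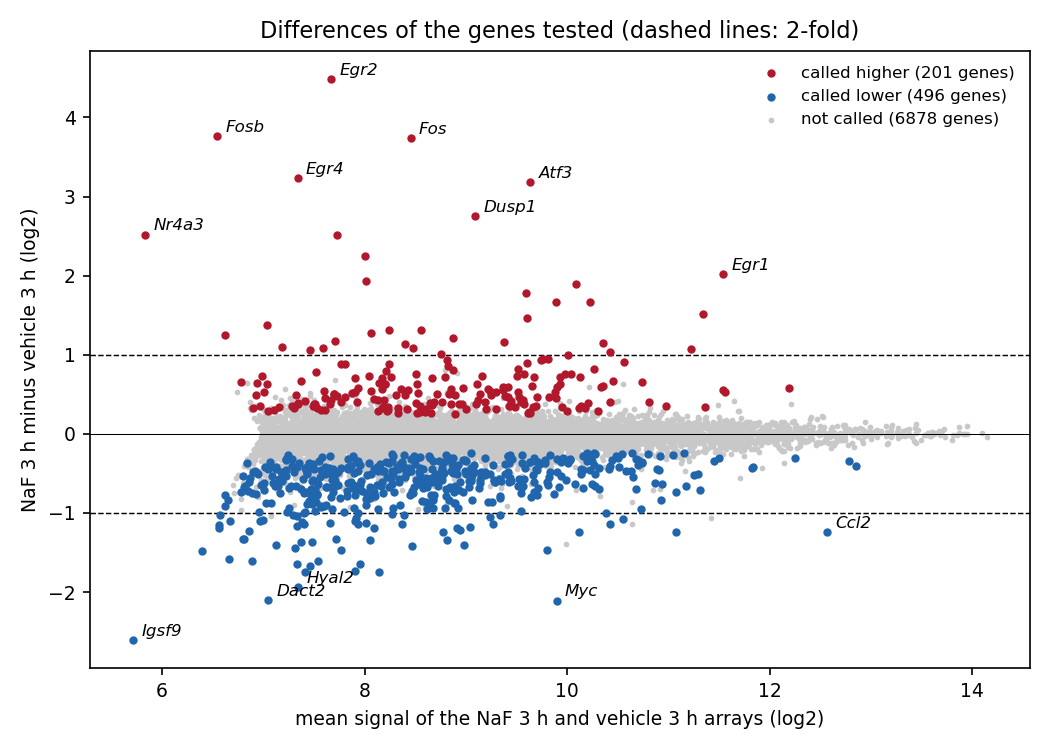
Difference of NaF 3 h from vehicle 3 h (log2, vertical axis) against the mean signal of these arrays (log2, horizontal axis), 1 point per gene at its brightest kept probe set. Red points are the 201 genes called higher, blue points the 496 called lower and grey points the others; the rises reach 4.49 (Egr2) and the falls -2.60 (Igsf9).

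The rises were few and large, with 10 of the 34 genes at least 4-fold up and Egr2 at the top. Egr2, a zinc finger transcription factor of the Egr family, had a log2 signal of 9.92 at NaF 3 h, against 5.17, 5.43, 5.10 and 4.94 at vehicle 0, 3, 6 and 12 h. The difference from vehicle 3 h was 4.49 (limma change from the 4 vehicle arrays 4.76 ± 0.17 SE, adjusted p = 0.0012). Egr2 was kept only through the NaF array and its vehicle signal lay near the array median, so that its fold is imprecise; set against the minimum of 7 itself, the difference was 2.92. Its relative Egr4 reached 8.96 at NaF 3 h, against 5.06, 5.72, 5.62 and 5.72 at the vehicle times, a rise of 3.23 over vehicle 3 h (adjusted p = 0.0029 by limma). Egr1, a further relative, was already bright in vehicle, at 9.97, 10.53, 10.27 and 10.36 from 0 to 12 h, and stood at 12.55 at NaF 3 h. None of these levels overlapped with vehicle, and for all 34 genes NaF 3 h lay above every vehicle array. It did so for 28.6% of all genes tested, but the 34 were chosen by their distance from these same arrays, which largely fixes their count.

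Fos and Fosb, both subunits of the AP-1 transcription factor, followed Egr2. Fos had 10.32 at NaF 3 h and 5.81, 6.58, 6.00 and 6.06 at vehicle 0, 3, 6 and 12 h. Fosb, with 8.43 at NaF 3 h, was at 4.69, 4.66, 4.30 and 4.12 in the same vehicle arrays. The differences from vehicle 3 h were 3.74 and 3.77 (limma adjusted p = 0.0022 and 0.0018), and 3.32 and 1.43 against the minimum of 7. Vehicle 3 h was the highest of the vehicle arrays for 27 of the 34 rises, compared with 46.7% of all genes, so that their differences from vehicle 3 h were the smaller ones. The same held for 37 of the 61 falls, whose differences were thereby the larger ones, and 50 of the 61 were also past 2-fold from the mean of the 4 vehicle arrays. The vehicle signal of 11 rises was below 7, the minimum for keeping a probe set, so these genes were kept only because NaF 3 h was high and the sizes and ranks of their rises are imprecise. Nr4a3, an orphan nuclear receptor, is such a case, with 7.09 at NaF 3 h against 3.77 to 4.57 in vehicle.

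**Figure D2:**
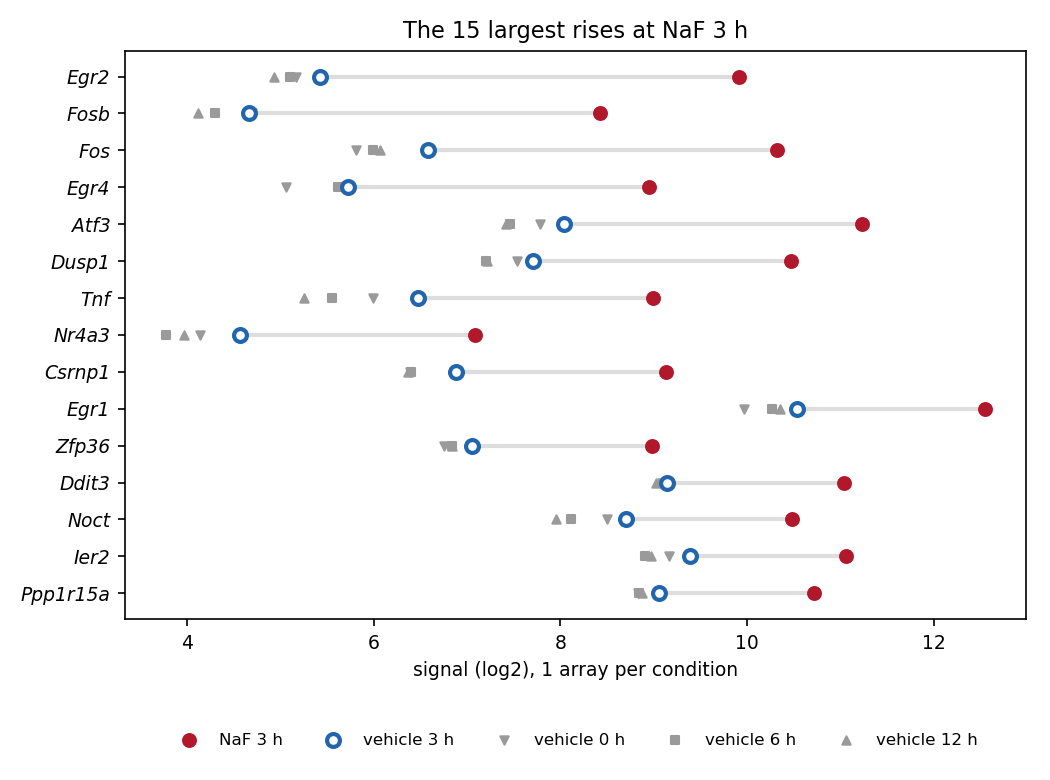
Log2 signal of the 15 genes with the largest rise, 1 row per gene, with NaF 3 h in red, vehicle 3 h as an open blue circle and the vehicle arrays of 0, 6 and 12 h in grey; each point is 1 array of pooled RNA. NaF 3 h lies right of every vehicle array in each row, by 4.49 on the log2 scale from vehicle 3 h for Egr2 and 1.67 for Ppp1r15a.

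Immediate early transcription factors moved as a list, though not all of its members did. Of 22 tested, 12 were higher (54.5%, against 2.65% of all genes) and 2 were lower (9.09%, against 6.55%). These counts are a description, since some members were kept only through a high NaF signal: 9 of 20 were higher when the mean of both arrays had to reach 7, and 9 of 26 with no filter. Csrnp1, a nuclear protein that activates transcription, rose by 2.25 to 9.13 at NaF 3 h, against 6.37 to 6.88 in vehicle. Ier2 rose by 1.67 and Egr1 by 2.01 over vehicle 3 h (limma adjusted p = 0.0046 and 0.0038). The 2 lower members were Klf6, a Kruppel-like factor, at -1.24, and Fosl2, a Fos relative, at -0.66. On vehicle 3 h the median member stood 0.25 above the mean of the other vehicle arrays, compared with 0.05 over all genes. The count was 12 without the vehicle 3 h array and 8 without any one of the others.

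The AP-1 and bZIP list shares its Fos, Jun and Maf members with the previous one. Of its 29 tested genes 10 were higher (34.5%, against 2.65% of all genes) and 2 lower (6.9%, near the 6.55% of all genes). These counts are a description, since Fos and Fosb were kept only through a high NaF signal. When the mean of both arrays had to reach 7, 8 of 28 were higher, and 4 of 36 with no filter. Atf3, a bZIP factor induced by many stresses, had 11.23 at NaF 3 h, against 7.78, 8.04, 7.46 and 7.41 at vehicle 0, 3, 6 and 12 h. Ddit3, also known as CHOP, was at 11.03 at NaF 3 h and within 9.02 to 9.16 in vehicle, a difference of 1.89 (limma adjusted p = 0.0012). Smaller rises were those of Fosl1 by 0.75, Maff by 0.64, Mafk by 0.53 and Junb by 0.41. Jun, named here although it was not called, differed by 0.25 (limma adjusted p = 0.067). Atf4, through which eIF2-alpha phosphorylation acts on transcription, rose by 0.58. Atf6, a sensor of unfolded protein in the endoplasmic reticulum, rose by 0.26. The lower members were Fosl2 and Nfe2l2, the regulator of antioxidant genes also known as NRF2, which had 10.51 at NaF 3 h and 11.34 to 11.49 in vehicle. The calls of Fosl1, Maff, Mafk and Atf6 were lost without the vehicle array of 0, 6 or 12 h, that of Atf4 without that of 6 or 12 h and that of Junb without any one of the arrays. The number of higher members was 5 without the vehicle 0 h array and 4 without that of 6 h or of 12 h.

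Targets of the integrated stress response were called in one direction. Of 23 tested, 8 were higher (34.8%, against 2.65% of all genes) and 0 lower (against 6.55%) by limma. At an unadjusted p under 0.05, 10 were higher and 0 lower. Beside Atf3 and Ddit3 the called members included Ppp1r15a, which directs a phosphatase to eIF2-alpha and so ends the response. Ppp1r15a had 10.72 at NaF 3 h, against 8.84, 9.06, 8.85 and 8.87 at vehicle 0, 3, 6 and 12 h. Trib3, a pseudokinase induced by Atf4 and Ddit3, rose by 1.27, and its other 2 kept probe sets gave 1.10 and 0.95. Without the vehicle 6 h array 4 members were called, Trib3 not among them, and without that of 12 h, 5.

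Chaperones and degradation factors of the endoplasmic reticulum were not called at this time. Of 24 tested, 0 were higher and 0 lower by limma, and at an unadjusted p under 0.05 the counts were 0 and 1. Differences of the list had a median of -0.03. The NRF2 targets (17 tested) and the aminoacyl-tRNA synthetases (18 tested) also had 0 calls in either direction, with 2 and 1 genes higher and 0 lower at an unadjusted p under 0.05.

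Epidermal growth factor ligands and the brakes of their pathway were among the rises. Of 20 tested genes of the EGF and MAP kinase list, 7 were higher (35.0%, against 2.65% of all genes) and 1 lower (5.0%, near 6.55%). Dusp1, a phosphatase that switches off MAP kinases in the nucleus, had 10.47 at NaF 3 h, against 7.54, 7.71, 7.20 and 7.21 at vehicle 0, 3, 6 and 12 h. Errfi1, an inhibitor of the EGF receptor, had 10.34 at NaF 3 h, against 8.50 to 8.87 in vehicle, and Dusp5, an ERK phosphatase, rose by 0.72. Of the ligands, Hbegf had 9.02 at NaF 3 h and 7.66, 7.94, 7.50 and 7.38 in vehicle, and Areg had 10.94 against 9.83, 9.90, 9.59 and 9.50. Nrg1, a ligand of other ErbB receptors, rose by 0.72, and Map3k14, a kinase of the noncanonical NF-kB pathway, by 0.74. The exception was Dusp7, another ERK phosphatase, at 9.49 at NaF 3 h and 10.41 to 10.74 in vehicle. Map3k14 was kept only through the NaF array. When the mean of both arrays had to reach 7, 6 of 19 were higher, and 2 of 30 with no filter. Without the vehicle 6 h array 3 members were called higher. The calls of Hbegf, Areg, Dusp5 and Nrg1 were lost without it, those of Hbegf and Dusp5 also without that of 0 h, that of Nrg1 without that of 3 h, and those of Dusp5 and Map3k14 without that of 12 h.

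Of 18 cytokines and chemokines 2 were higher (11.1%, against 2.65% of all genes) and 1 lower (5.56%, near the 6.55% of all genes). Tnf, an inflammatory cytokine, had 8.99 at NaF 3 h, against 5.99, 6.47, 5.55 and 5.25 at vehicle 0, 3, 6 and 12 h (limma adjusted p = 0.013). Its call was lost without the vehicle 0 h array (limma adjusted p = 0.054), without that of 6 h (0.064) and against vehicle 3 h alone (0.066). Tnf was also kept only through the NaF array, since its vehicle 3 h signal was under 7. Vegfa, an angiogenic growth factor, rose by 0.95, a call lost without the vehicle 12 h array. Ccl2, a monocyte chemokine and one of the brightest genes of the comparison, was at 11.94 at NaF 3 h, against 13.20, 13.19, 12.95 and 12.66 in vehicle. Its vehicle level was itself lower at 6 and 12 h, and the limma adjusted p was 0.037, with the call lost without the array of 0, 3 or 6 h. Ccl20 and Ccl7, 2 further chemokines named here although they missed the test, lay 1.40 and 1.14 below vehicle 3 h (limma adjusted p = 0.14 and 0.12). These were among the 4 genes past 2-fold down that were not called, the others being Tgif1 and Mfsd9; all 34 genes past 2-fold up were called.

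Other rises also included genes that limit a signal or a message. Zfp36, known as tristetraprolin, binds AU-rich elements and hastens the decay of messages such as that of Tnf; it had 8.98 at NaF 3 h and 6.75, 7.05, 6.84 and 6.84 at vehicle 0, 3, 6 and 12 h. Smad7, an inhibitor of TGF-beta signaling, rose by 1.31 to 8.89. Rcan1, an inhibitor of calcineurin, rose by 1.21, and Nfkbiz, a nuclear inhibitor-like protein of NF-kB, by 1.07, a call lost without the vehicle array of 6 or 12 h. Among the remaining genes were Ifrd1, a transcriptional coregulator, at 12.10 at NaF 3 h against 10.44 to 10.62 in vehicle, and Plaur, the receptor of urokinase, at 10.92 against 9.64 to 9.98. By roles assigned after their values were seen, 13 of the 34 genes encode transcription regulators, 8 signaling proteins and 4 secreted factors or receptors. These roles were not counted over all genes tested, so the counts have no background and show no excess. The threshold of 2-fold passed between Fam43a at 1.01 and an uncharacterized locus at 0.996 on the log2 scale.

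Promoters of the rising genes were searched for elements through which some immediate early genes are known to be switched on. Such elements are the cyclic AMP response element (CRE), its shorter core TGACG and the CArG box, the binding element of serum response factor. Whether any of them acts in these cells was not tested. The 250 bases before the annotated start of 28 of the 34 genes were given by RefSeq (build GRCr8). A CRE (TGACGTCA, either strand) was in 6 of 28 (21.4%), against 3 of 50 windows of the genes at least 2-fold lower (6.0%), 3.33% of 6420 windows of genes tested and 1.7% of all 27457 windows of that length. The core TGACG, which the CRE contains, was in 14 of 28 (50.0%), against 9 of 50 (18.0%), 31.6% of genes tested and 19.0% of all windows. A CArG box was in 3 of 28 (10.7%), those of Egr2, Egr1 and Zfp36, against 1 of 50 (2.0%), 1.29% and 1.5%. The E-box CACGTG was in 10.7% of rising and 6.0% of falling genes, against 9.13% of genes tested and 5.79% of all windows. The AP-1 site TGANTCA was in 3 of 28 and 0 of 50, against 4.33% and 6.36%. A match describes the letters of a window and was not tested as a site.

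The windows of the 4 largest rises for which one was given follow, 5′ to 3′ toward the start, with matches to any of these motifs in capitals. They lie on GRCr8 at chr20:21054442-21054691 (minus strand, Egr2), chr1:88089185-88089434 (minus, Fosb), chr4:119607818-119608067 (minus, Egr4) and chr10:17184603-17184852 (plus, Dusp1). Fos and Atf3 had no window.
Egr2: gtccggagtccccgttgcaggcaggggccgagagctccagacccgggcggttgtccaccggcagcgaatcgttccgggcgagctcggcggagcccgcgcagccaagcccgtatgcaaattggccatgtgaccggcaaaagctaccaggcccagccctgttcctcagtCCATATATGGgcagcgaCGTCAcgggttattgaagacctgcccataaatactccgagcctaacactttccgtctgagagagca
Fosb: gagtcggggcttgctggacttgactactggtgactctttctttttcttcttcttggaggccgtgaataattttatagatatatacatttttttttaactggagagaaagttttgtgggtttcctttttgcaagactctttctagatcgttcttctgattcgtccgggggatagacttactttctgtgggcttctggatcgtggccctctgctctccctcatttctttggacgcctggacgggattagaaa
Egr4: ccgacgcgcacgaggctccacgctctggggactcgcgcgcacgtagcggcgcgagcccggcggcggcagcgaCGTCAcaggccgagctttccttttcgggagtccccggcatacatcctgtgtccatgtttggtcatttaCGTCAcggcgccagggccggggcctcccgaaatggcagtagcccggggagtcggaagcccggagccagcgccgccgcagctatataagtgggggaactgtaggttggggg
Dusp1: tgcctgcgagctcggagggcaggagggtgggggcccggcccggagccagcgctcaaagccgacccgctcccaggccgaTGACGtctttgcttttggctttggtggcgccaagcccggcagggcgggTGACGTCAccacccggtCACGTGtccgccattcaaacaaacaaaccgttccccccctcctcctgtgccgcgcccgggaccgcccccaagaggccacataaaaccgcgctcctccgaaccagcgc
Egr2 holds a CArG box 83 to 74 bases before the start and a TGACG core 66 to 62 bases before it. Egr4 holds 2 such cores, and Dusp1 a full CRE 124 to 117 bases before the start, a separate core and an E-box. The Fosb window matched none of the motifs.

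The falls were more numerous and smaller, with 3 of 61 genes at least 4-fold down and a median difference of -1.24. Igsf9, a cell adhesion protein of the immunoglobulin superfamily, was lowest, with 4.41 at NaF 3 h against 6.93, 7.02, 7.07 and 7.38 at vehicle 0, 3, 6 and 12 h. Its vehicle 3 h level was just above the minimum of 7, and its NaF 3 h level was well under it, so the difference of -2.60 rests on a dim signal. Myc, which drives growth and proliferation as a transcription factor, was bright and fell to 8.84 at NaF 3 h, against 10.73, 10.95, 10.65 and 10.62 in vehicle (limma change -1.89 ± 0.13 SE, adjusted p = 0.0022). In 28 of the 61 genes the NaF 3 h signal was under 7. All 61 lay below every vehicle array, as 33.1% of all genes did, which their choice by distance from these same arrays largely fixes. Of the 61, 37 were at least 2-fold below the nearest vehicle array.

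**Figure D3:**
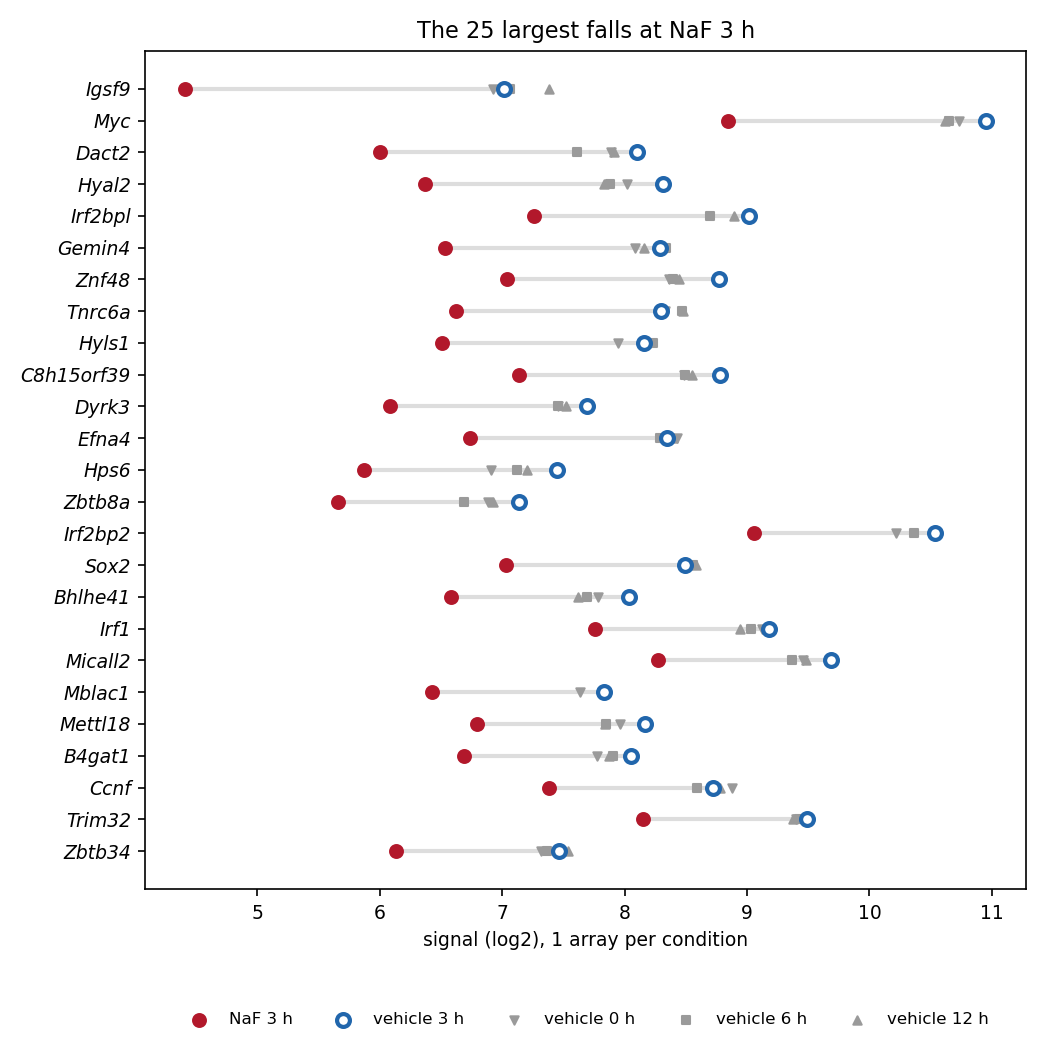
Log2 signal of the 25 genes with the largest fall, 1 row per gene, with NaF 3 h in red, vehicle 3 h as an open blue circle and the vehicle arrays of 0, 6 and 12 h in grey; each point is 1 array of pooled RNA. NaF 3 h lies left of every vehicle array in each row, with a difference from vehicle 3 h of -2.60 on the log2 scale for Igsf9 and -1.33 for Zbtb34.

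By roles assigned after their values were seen, 21 of the 61 falling genes encode transcription regulators. Such roles were not counted over all genes tested, so this count has no background and shows no excess. Irf2bpl and Irf2bp2, related corepressors that bind interferon regulatory factor Irf2, had 7.26 and 9.06 at NaF 3 h, against 8.70 to 9.02 and 10.22 to 10.54 in vehicle. Irf1, an activator of interferon-responsive genes, was at 7.76 at NaF 3 h and 8.94 to 9.18 in vehicle. Sox2, a factor of progenitor cells in stratified epithelia, had 7.03 at NaF 3 h, against 8.48, 8.49, 8.56 and 8.58 at vehicle 0, 3, 6 and 12 h (difference -1.46, limma adjusted p = 0.0016). A second kept probe set of Sox2 gave -0.80. Klf6 and Klf3, both Kruppel-like factors, had -1.24 and -1.19, each falling in all 3 of its kept probe sets.

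Helix-loop-helix factors and their inhibitors were called lower in 6 of 16 tested genes (37.5%, against 6.55% of all genes) and higher in 1 (6.25%, against 2.65%). Bhlhe41, a repressor linked to the circadian clock, had 6.58 at NaF 3 h and 7.78, 8.03, 7.69 and 7.62 at vehicle 0, 3, 6 and 12 h. Its relative Bhlhe40 was at 7.90 at NaF 3 h and 8.69 to 9.02 in vehicle. The Id proteins block helix-loop-helix factors from binding DNA and are known targets of BMP signaling. Id1 was at 10.01 at NaF 3 h, against 11.21, 11.09, 11.10 and 11.08 in vehicle, and Id2 and Id3 fell by 1.21 and 0.64. Hes1, a Notch target, fell by 0.68. Over the whole list the median difference was -0.10. Without the vehicle 6 h array 2 members were called lower. The calls of Bhlhe41 and Id2 were lost without the array of 0 or 6 h, that of Id3 without that of 6 h, that of Bhlhe40 without that of 3 or 12 h and that of Hes1 without that of 3, 6 or 12 h.

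Zinc finger genes named Zfp or Znf were often among the falls. Of 116 tested, 21 were lower (18.1%, against 6.55% of all genes) and 4 higher (3.45%, near the 2.65% of all genes). The higher ones include Zfp36, which is no transcription factor. Znf48 had 7.04 at NaF 3 h, against 8.36, 8.77, 8.40 and 8.44 at vehicle 0, 3, 6 and 12 h, and Zfp133 had 6.24 against 7.18, 7.47, 7.20 and 7.20. Zfp467 was lower as well, at -1.19. Their median difference was -0.15 from vehicle 3 h but -0.05 from the 4 vehicle arrays, where all genes had -0.04 and -0.01. The vehicle 3 h array itself stood 0.11 above the mean of the others for this class, compared with 0.05 for all genes. In related zinc finger families such as Zbtb, 7 of 31 genes were lower (22.6%, against 6.55%) and 4 higher (12.9%, against 2.65%). Zbtb8a was at 5.66 at NaF 3 h and 6.69 to 7.14 in vehicle. Without the vehicle 6 h array 6 Zfp or Znf genes were called lower, and without that of 12 h, 10. Zfp133 lost its call without the 6 h array, Zbtb8a without that of 12 h and Zfp467 without that of 3, 6 or 12 h.

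Several falling genes act on RNA or on ribosomes. Tnrc6a, a partner of Argonaute proteins in microRNA silencing, had 6.62 at NaF 3 h, against 8.33, 8.30, 8.47 and 8.48 at vehicle 0, 3, 6 and 12 h, and a second kept probe set gave -1.84. Gemin4, a subunit of the SMN complex that assembles spliceosomal particles, was at 6.53 at NaF 3 h and 8.08 to 8.34 in vehicle. In the mRNA decay list 4 of 31 tested genes were lower (12.9%, against 6.55% of all genes) and Zfp36 alone was higher (3.23%, near 2.65%). The lower ones were Edc3, an activator of decapping, at -0.60, Ddx6, a decapping helicase, at -0.48, Exosc3, an exosome subunit, at -0.48, and Pum2, a repressor that binds messages, at -0.26, whose other kept probe sets gave -0.10 and 0.07 (limma adjusted p = 0.45 and 0.61). Their calls were lost without the vehicle 6 h or 12 h array, and 2 remained without that of 0 h or of 3 h. Of 59 ribosome biogenesis genes 2 were lower (3.39%, under the background of 6.55%), Utp3 at -0.80 and Rrs1 at -0.69, and Rrs1 lost its call without the vehicle array of 0, 6 or 12 h.

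Signaling and surface proteins made up another share of the falls. Dact2, an antagonist in Wnt and TGF-beta pathways, had 6.00 at NaF 3 h, against 7.89, 8.10, 7.61 and 7.91 at vehicle 0, 3, 6 and 12 h. Fzd2 and Fzd1, Wnt receptors, fell by 1.03 and 0.73. Hyal2, a hyaluronidase of the cell surface, was at 6.37 at NaF 3 h and 7.83 to 8.31 in vehicle. Efna4, an ephrin ligand, fell by 1.61 to 6.74, and Dyrk3, a kinase that dissolves stress granules, by 1.61 to 6.08. Sgk1, a serum- and glucocorticoid-induced kinase, was at 9.86 at NaF 3 h and 10.83 to 11.00 in vehicle. In the Wnt list 3 of 13 tested genes were lower (23.1%, against 6.55% of all genes) and 0 higher. In the YAP and Hippo list 3 of 21 were lower (14.3%, against 6.55%) and 0 higher. These lower genes were Amotl2 at -0.74 and Ajuba at -0.71, regulators of that pathway, and Ccn2 at -0.41. The call of Ccn2 was lost without the vehicle array of 6 or 12 h.

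Mitotic genes leaned downward with few calls. Of 42 tested, 7 were lower (16.7%, against 6.55% of all genes) and 0 higher by limma. At an unadjusted p under 0.05, 22 were lower and 0 higher, where 1224 and 725 of all 7575 genes were so. The median difference of the list was -0.26. Ccnf, a cyclin with an F-box, had 7.38 at NaF 3 h, against 8.87, 8.72, 8.59 and 8.78 at vehicle 0, 3, 6 and 12 h. Aurka, a kinase of spindle assembly, was at 7.82 at NaF 3 h, but its vehicle level itself ranged between 8.55 and 8.96. Espl1, the protease separase, and Lmnb1, a lamin, fell by 0.79 and 0.67. Between 3 and 4 members were called lower without the vehicle array of 3, 6 or 12 h. Aurka lost its call without that of 3 or 6 h and Espl1 without any of these. In the DNA replication list 4 of 42 were lower (9.52%, near the 6.55% of all genes), among them the cyclins Ccne1 and Ccne2, at -0.53 and -0.59, but 0 were without the vehicle 6 h array and 1 without that of 12 h.

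Of 27 genes of the apoptosis machinery 4 were lower (14.8%, against 6.55% of all genes) and 1 higher (3.7%, near the 2.65% of all genes). Bbc3, a BH3-only activator of apoptosis known as PUMA, fell by 1.14 to 7.36 at NaF 3 h, against 8.36 to 8.52 in vehicle. Bcl2l11, the BH3-only protein BIM, rose by 0.79, a call lost without the vehicle array of 0, 3 or 6 h. Tnfrsf1a, the receptor of Tnf, was at 8.17 at NaF 3 h and 8.94 to 9.16 in vehicle, a fall of 0.86 beside the rise of its ligand.

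Parts of the general transcription machinery were called higher. Of 36 elongation and Mediator genes 5 were higher (13.9%, against 2.65% of all genes) and 1 lower (2.78%, against 6.55%). Taf4b, a subunit of TFIID, rose by 0.70, Med13l, a Mediator subunit, by 0.64 and Ccnt2, a cyclin of the elongation kinase Cdk9, by 0.63, whereas Taf5 of TFIID was at -0.87. The higher members numbered 3 without the vehicle 6 h array and 2 without that of 12 h, Med13l being lost without that of 3, 6 or 12 h and Taf4b without that of 12 h. Among 60 chromatin modifiers 6 were lower (10.0%, near the 6.55% of all genes) and 4 higher (6.67%, against 2.65%). Setd1b, a histone methyltransferase, fell by 0.98 and Brd2, a reader of acetylated histones, rose by 0.56, a call lost without the vehicle array of 0, 6 or 12 h.

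Large housekeeping classes were called lower at most slightly more often than all genes, and several had no calls. Of 73 mitochondrial ribosomal protein genes 7 were lower (9.59%, against 6.55% of all genes) and 0 higher, with 19 and 1 at an unadjusted p under 0.05 by limma. Without the vehicle 6 h array 2 of these 73 were called lower, and 5 without that of 3 h or of 12 h. Of 83 splicing factors 5 were lower (6.02%, near the 6.55% of all genes) and 2 higher (2.41%, near 2.65%). Of 49 translation initiation factors 4 were lower (8.16%, near 6.55%) and 0 higher. Of 76 respiratory chain subunits 1 was lower (1.32%, under 6.55%) and 0 higher. Of 41 cytosolic ribosomal protein genes, 37 proteasome subunits, 47 Rab GTPases and 38 keratins and junction genes, 0 were called in either direction by limma, with 1, 0, 3 and 2 genes higher and 1, 3, 4 and 2 lower at an unadjusted p under 0.05. The medians of the classes without calls lay between -0.04 and 0.01.

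**Figure D4:**
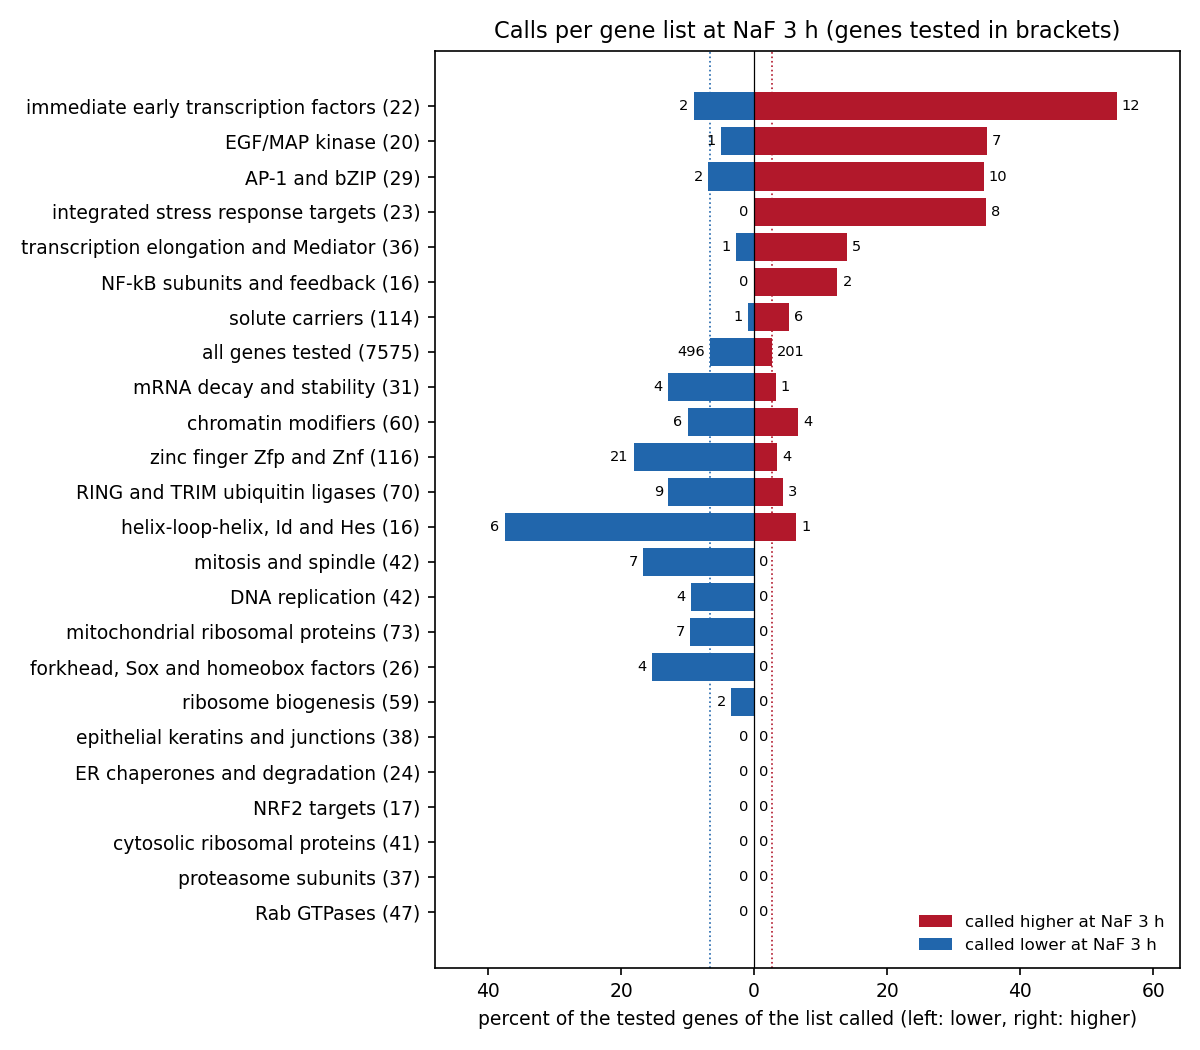
Percent of the tested genes of each list called by limma at NaF 3 h, with lower calls drawn to the left and higher calls to the right; the number beside a bar is the count of genes called, the number in brackets that of genes tested, and the dotted lines mark the 2.65% higher and 6.55% lower over all genes. Immediate early transcription factors reach 54.5% higher and helix-loop-helix factors 37.5% lower, while ER chaperones, cytosolic ribosomal proteins and proteasome subunits have none.

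The early genes then took different courses, read at 6 h and at 12 h as NaF minus vehicle, on arrays that the 3 h difference did not use. Of the 34 rises, 32 were at least 2-fold up at 6 h and 23 at 12 h, while 1.69% and 4.01% of all genes tested were so. Their median difference ran through 1.42, 2.12 and 1.78 over the 3 times. Of the 61 falls, 36 were at least 2-fold down at 6 h and 8 at 12 h, against 2.98% and 5.32% of all genes, and their medians were -1.24, -1.10 and -0.30. The call at 3 h, which also used the later vehicle arrays, removed no rise and 4 falls from those past 2-fold. Because the genes were chosen for a large difference at 3 h, smaller differences at later times are partly built in. How much of the courses comes from that choice was not tested.

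Egr4 returned to vehicle, at 3.23, 1.88 and 0.00 above it at 3, 6 and 12 h, and Hoxb6, a homeobox factor, ended below it, at 1.10, 1.08 and -0.29. Egr2 declined with 4.49, 3.58 and 1.16, and Fosb with 3.77, 2.96 and 0.57. The opposite pattern was that of Ddit3, with 1.89, 2.83 and 3.36, Trib3 with 1.27, 2.14 and 3.69, and Rcan1 with 1.21, 2.54 and 3.53. The difference from time-matched vehicle was largest at 3 h for 9 of the rises, at 6 h for 16 and at 12 h for 9. A larger difference at 6 h can come from a lower vehicle level as well as from a higher NaF signal. For Csrnp1 the NaF signal itself went from 9.13 at 3 h to 10.09 at 6 h. Atf3 stayed above vehicle throughout, by 3.19, 3.50 and 2.56. Its NaF signal was 11.23, 10.96 and 9.97 at 3, 6 and 12 h, against 8.04, 7.46 and 7.41 in vehicle.

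Few falls were still 2-fold at 12 h. Myc was 2.11 below vehicle at 3 h, 0.05 above at 6 h and 1.01 above at 12 h, the only fall that ended 2-fold on the other side. At 12 h, 20 of the 61 were above vehicle and 28 were within 0.5 of it. The 8 that were still 2-fold down included Dact2, with -2.10, -2.30 and -2.996 at 3, 6 and 12 h, Fzd2 with -1.03, -1.94 and -1.86, Irf1 with -1.42, -1.58 and -1.69 and Bhlhe41 with -1.45, -2.09 and -1.61. For 36 of the falls the largest difference was that at 3 h, the time at which they were chosen.

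**Figure D5:**
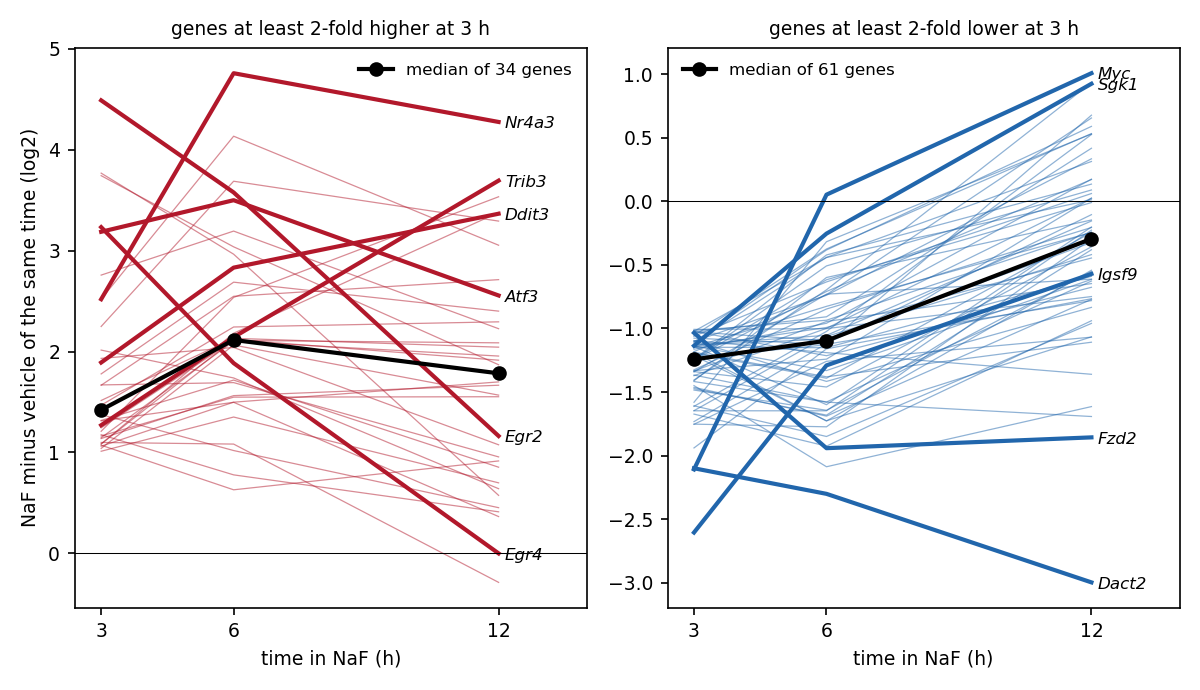
Difference between NaF and time-matched vehicle (log2, vertical axis) against time in NaF (h, horizontal axis), for the 34 genes at least 2-fold higher at 3 h (left) and the 61 at least 2-fold lower (right). Each thin line is 1 gene, named genes are drawn thicker, and the black line is the median, which runs through 1.42, 2.12 and 1.78 on the left and -1.24, -1.10 and -0.30 on the right.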

How the data were processed

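Per condition, the authors mixed RNA of 3 experiments, made biotin-labeled cRNA and processed the scans of 7 arrays with GeneSpring GX (version and normalization: not given in the sources used here). What they deposited is a log2 signal for every probe set, which was taken unchanged. The medians of the 7 arrays ran from 5.325 (NaF 3 h) to 5.352 (vehicle 12 h). The platform annotation named 20832 of 31099 probe sets with 1 symbol, 436 with several and 9831 with none, and only those with 1 symbol named a gene. The fit was made with limma 3.58.1 (R 4.3.3, functions lmFit and eBayes, Benjamini-Hochberg over 11099 probe sets, 3 residual and 2.78 prior degrees of freedom). It was also run on simulated data in which the NaF array varied like the vehicle arrays, so that run cannot check this assumption. The number of arrays limits the precision. Named genes were the 15 largest rises and 25 largest falls past the test and 2-fold, up to 4 called members of each list with the largest difference, and every called EGF and MAP kinase, bZIP or mRNA decay gene; others are marked or are members past 2-fold. Members, lists and rules were chosen with earlier results of these data known. Lists overlap, and those by name pattern (such as Zfp) hold whatever bears the name. Alternatives were other scalings, filters, baselines, thresholds and probe set summaries and each vehicle array left out; counts of lists and of early genes under them were added after seeing the data. The label of the 0 h array reads vehicle only.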

Additional observations from a re-analysis of the deposited data

Results flagged for a closer look

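The genes given here differed in direction between the times in NaF. They were called in opposite directions at 3 h and 12 h, lay at least 0.5 from time-matched vehicle at both times on the log2 scale, and differed between NaF 12 h and NaF 3 h. Since they were chosen on these values, the values are a description, and whether the effect over time-matched vehicle changed was not tested. The value of each is NaF 12 h minus NaF 3 h, in which vehicle is not subtracted; for Myc it is 2.78, where NaF minus vehicle was -2.11 at 3 h and 1.01 at 12 h. Of the other genes at least 2-fold lower at 3 h, Mblac1 changed by 2.33, Dyrk3 by 1.96, Sgk1 by 1.89, Hps6 by 1.86, Zfp133 by 1.63, Ddx28 by 1.58, Ppan by 1.57 and Pelo by 1.46. Of called genes with smaller falls at 3 h, Utp3 changed by 1.59, Rrs1 by 1.39, Ppp1r15b by 1.34, Irx5 by 1.21 and Tmem185b by 0.99. Klf7, a Kruppel-like factor, ran the other way, with -1.50, and differed from vehicle by 0.56 at 3 h and by -1.11 at 12 h. Each time rests on 1 array of pooled RNA.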

How the results depend on the processing

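The count of higher probe sets (322) was 583 with quantile normalization, 73 without a filter on signal and 68 in the test against vehicle 3 h alone, and it ranged between 77 and 284 when 1 vehicle array was left out (188 without 0 h, 114 without 12 h). The count of lower probe sets (700) was 150 without a filter and 261 against vehicle 3 h alone, and it ranged between 180 and 542 when 1 vehicle array was left out (254 without 12 h). The lowest counts came without the 6 h array. Against vehicle 3 h, 49 probe sets were at least 2-fold higher and 97 at least 2-fold lower, called or not; these were 98 and 192 without a filter and 25 and 37 at 2.5-fold. Equal array medians, a variance trend, stricter filters and, for the 2-fold counts, the mean of the 4 vehicle arrays as baseline left each count within 1.5 times its value. Of the 34 and 61 genes past 2-fold, 23 and 51 kept their call against vehicle 3 h alone, and 23 and 36 without a filter, where more probe sets were tested. Of the 204 genes that the naming rule gave, 103 lost their call without the 6 h array, 85 without that of 12 h, 47 without that of 0 h, 40 without that of 3 h and 99 against vehicle 3 h alone. Among them the direction turned for Gas5 alone, which had 0.34 at its brightest probe set and -0.58 as the mean of its probe sets. No paired analysis was possible because each group holds 1 array. The cause of these differences was not tested. Where the signal of either array lay under the minimum of 7, the fold rests on a dim signal and is imprecise.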

Other observations

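Beside the genes, 10 probe sets with no single symbol were called and at least 2-fold higher and 17 at least 2-fold lower.

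Of 114 solute carriers 6 were higher (5.26%, against 2.65% of all genes) and 1 lower (0.877%, against 6.55%). Slc25a25, a mitochondrial carrier of ATP and magnesium, rose by 1.32, Slc7a5, a transporter of large neutral amino acids, by 0.60 and Slc22a5, the carnitine transporter, by 0.54, while Slc16a13 fell by 0.55. The higher ones numbered 3, 4, 1 and 1 without the vehicle array of 0, 3, 6 and 12 h, and 0 in the test against vehicle 3 h alone. Both tested hosts of small nucleolar RNAs were called higher at their brightest probe set, against 2.65% of all genes, Snhg4 by 1.16 and Gas5 by 0.34. The call of Gas5 was lost without the vehicle array of 3, 6 or 12 h, and its other kept probe set was called lower.

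Some genes passed the test and 2-fold at a dimmer probe set while their brightest one was not past 2-fold. Gas5 had -1.50 at its dimmer probe set (limma adjusted p = 0.0016), opposite to its brightest. Tpm1, a tropomyosin, had -1.39 at one probe set and -0.01 at its brightest, and Ddx42, an RNA helicase of splicing, had -1.26 and 0.02. In others the brightest one was called the same way with a smaller difference, as for Rbm5, a splicing regulator, with -1.49 and -0.46, and Wee1, a kinase that restrains entry into mitosis, with -1.12 and -0.82. Ubr2, a ubiquitin ligase, was the only such gene upward, with 1.10 and -0.01. Which transcript each probe set reads was not tested.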
